A study of Mus musculus with 13 samples.

Results

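The genes described here are 9 genes of sperm function, chosen by symbol among the 20662 genes of the deposited tables: the pore-forming CatSper channel subunits Catsper1, Catsper2, Catsper3 and Catsper4, and the testis-specific serine/threonine kinases Tssk1, Tssk2, Tssk3, Tssk4 and Tssk6. All 9 were listed with a value above 0 in both libraries analysed. CatSper is the calcium channel of the sperm tail. It opens in response to alkaline pH and voltage, its pore is built from the products of 4 different genes, and calcium entering through it drives the hyperactivated swimming that mouse sperm need to fertilise. The TSSK proteins are kinases made almost only in the testis, mainly in spermatids, the haploid cells that are reshaped into sperm, and male mice that lack particular family members are infertile. Both groups of genes are therefore known chiefly for their work in spermatids and sperm, the last, post-meiotic cells of spermatogenesis. The libraries examined here instead carry the cell type label spermatogonia, the mitotic cells at its start.

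RNA of testicular germ cells from C57BL/6 mice aged 8 weeks was depleted of ribosomal RNA and sequenced from directional libraries. The 2 spermatogonial samples, from testis, are titled KIT_AGSC and THY1_AGSC, and no genotype or treatment differs between them in the labels. KIT is the receptor of differentiating spermatogonia and THY1 a surface antigen used to enrich undifferentiated ones. How the cells were isolated, and from how many mice, is not given in the sources used here. The series also has 5 spermatocyte, 5 spermatid and 1 mature sperm sample, which were not analysed here.

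Each group had 1 library. No difference below has a replicate check or a p-value, and each compares 2 libraries rather than 2 conditions. Values are per length, taken as FPKM (fragments scaled by transcript length and by library total). Differences are on the log2(FPKM + 1) scale, KIT-labelled minus THY1-labelled, which understates the difference of low genes. A gene was counted where its larger value was at least 1 FPKM, and was called where the difference was at least 2-fold on that scale. The names of the libraries are uncertain. In the deposited tables the KIT sample has the column heading Thy1 and the THY1 sample the heading Kit. Kit transcripts had a listed value of 0 in the KIT-labelled library, against 36.7 FPKM in the THY1-labelled library, while Thy1 stood at 78.8 and 0.723 FPKM in the same order. Titles are followed here, and every direction turns if the titles were exchanged.

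All 4 pore subunits were at least 2-fold higher in the THY1-labelled library, and 4 of the 5 kinases were at least 2-fold higher in the KIT-labelled library. The exception among the kinases was Tssk3, which was higher in the THY1-labelled library. Among all 15573 genes counted, 39.5% were at least 2-fold higher in the KIT-labelled library and 41.1% in the THY1-labelled library, while 19.4% lay within 2-fold, so being called is common. The 4 CatSper values summed to 11.8 FPKM in the KIT-labelled library and 150 FPKM in the THY1-labelled library, while the 5 Tssk values summed to 562 and 141 FPKM in the same order. The summed kinases thus exceeded the summed channel subunits 47.5-fold in the KIT-labelled library and were 0.938 times as high in the THY1-labelled library, a ratio that does not depend on how the libraries are scaled to each other.

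**Figure D1:**
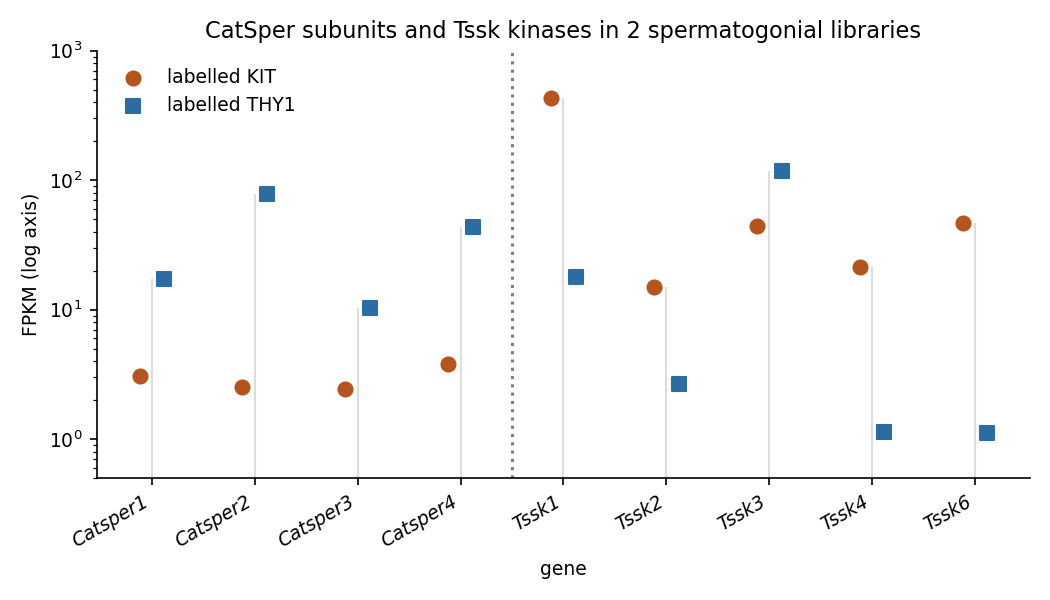
Level of each of the 9 genes in FPKM (log axis) in the KIT-labelled library (circles) and the THY1-labelled library (squares), 1 library each, with the CatSper subunits left of the dotted line and the Tssk kinases right of it. All 4 CatSper circles lie below their squares, and Tssk1, Tssk2, Tssk4 and Tssk6 show the opposite order.

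The pore subunits lay near or above the median of all 20662 genes in the KIT-labelled library, which was 2.50 FPKM with 6866 genes listed at 0. Among genes above 0 in that library they were low, between percentile 24.4 and percentile 34.7. Catsper1, the subunit with a long histidine-rich amino-terminal region, was at 3.06 FPKM in the KIT-labelled library and 17.2 FPKM in the THY1-labelled library. Catsper2 was at 2.52 FPKM in the KIT-labelled library and 78.7 FPKM in the THY1-labelled library. Catsper3 was at 2.44 FPKM in the KIT-labelled library and 10.3 FPKM in the THY1-labelled library. The 4 subunits assemble as unlike partners in 1 channel, and disruption of any of them leaves male mice infertile. Catsper4 was at 3.80 FPKM in the KIT-labelled library and 43.8 FPKM in the THY1-labelled library. The subunits spanned a narrow range of 2.44 to 3.80 FPKM in the KIT-labelled library and a wide one of 10.3 to 78.7 FPKM in the THY1-labelled library, and the 2 ranges did not overlap. The KIT-labelled values correspond to an estimated 1.18 to 2.45 fragments each, so likeness among them cannot be resolved. The differences on the log2 scale were -2.16 for Catsper1, -4.50 for Catsper2, -1.72 for Catsper3 and -3.22 for Catsper4. As ratios of FPKM, the THY1-labelled library was 31.2-fold higher for Catsper2, 11.5-fold for Catsper4, 5.61-fold for Catsper1 and 4.23-fold for Catsper3.

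Position within each library gives the same picture without any scaling between them. Among genes above 0, the pore subunits lay between percentile 24.4 (Catsper3) and percentile 34.7 (Catsper4) in the KIT-labelled library. In the THY1-labelled library they lay between percentile 55.2 (Catsper3) and percentile 91.0 (Catsper2). Catsper2 made up 21.3% of the summed pore subunit FPKM in the KIT-labelled library and 52.5% in the THY1-labelled library. Catsper1 made up 25.9% and 11.4%, Catsper3 20.6% and 6.86%, and Catsper4 32.2% and 29.2%, each with the KIT-labelled library first. The KIT-labelled shares rest on the few fragments described below. The order of levels in the THY1-labelled library was Catsper2, Catsper4, Catsper1 and Catsper3. With 1 library there is no spread against which neighbours in this order can be set.

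The values in the KIT-labelled library rest on few fragments. Depth is unknown, but the product of FPKM and transcript length at its low end approximates what 1 fragment is worth. It was taken at percentile 5 among genes above 0 with a single annotated transcript longer than 1000 bases. These were 1343 genes in the KIT-labelled library and 1399 in the THY1-labelled library. The product was 2735 in the KIT-labelled library and 427 in the THY1-labelled library, a ratio of 6.41. On this measure Catsper1 corresponded to 2.45 fragments in the KIT-labelled library and 88.0 in the THY1-labelled library. Catsper2 corresponded to 2.07 and 414 fragments, Catsper3 to 1.18 and 32.1, and Catsper4 to 2.40 and 177, in the same order. On this measure each of the 4 pore subunits was close to the smallest value above 0 for its transcript length in the KIT-labelled library. Their relative levels in that library thus cannot be resolved at this depth. The reverse held for the kinases that were low in the THY1-labelled library, where Tssk4 corresponded to 3.37 fragments and Tssk6 to 3.51. Low RNA of these genes in a bulk library cannot be told apart from a low share of cells that carry it.

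**Figure D2:**
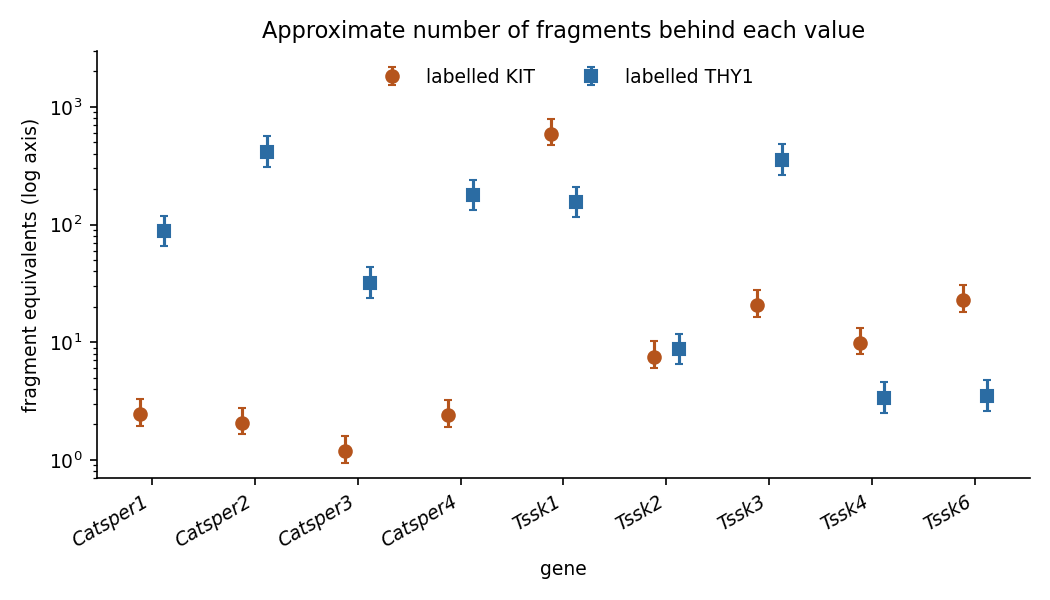
Approximate number of fragments behind each value (log axis), in the KIT-labelled library (circles) and the THY1-labelled library (squares). It comes from FPKM, transcript length and the worth of 1 fragment at percentile 5 of single-transcript genes above 0 and over 1000 bases. Bars run from the estimate at percentile 10 to that at percentile 2, and the CatSper subunits lie between 1.18 and 2.45 in the KIT-labelled library.

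The kinases differed more widely among themselves than the channel subunits did. Tssk1 was at 435 FPKM in the KIT-labelled library and 17.8 FPKM in the THY1-labelled library, a 24.4-fold ratio, and stood at percentile 99.3 of genes above 0 in the KIT-labelled library. Its neighbour Tssk2, which like Tssk1 binds and phosphorylates the spermatid protein TSKS, was at 14.9 FPKM in the KIT-labelled library and 2.68 FPKM in the THY1-labelled library. Male mice without both kinases are infertile. Tssk4, which in mice acts on sperm motility, was at 21.3 FPKM in the KIT-labelled library and 1.13 FPKM in the THY1-labelled library. Tssk6, needed in mice for normal packing of sperm DNA, was at 46.4 FPKM in the KIT-labelled library and 1.12 FPKM in the THY1-labelled library. This was the largest ratio of FPKM among the 9 genes, 41.3-fold, over a THY1-labelled value of an estimated 3.51 fragments. On the log2 scale Tssk1 differed slightly more than Tssk6. Tssk3 ran the other way, at 44.1 FPKM in the KIT-labelled library and 118 FPKM in the THY1-labelled library, where it was the highest of the 9 genes.

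On the log2 scale these differences were 4.54 for Tssk1, 2.11 for Tssk2, -1.40 for Tssk3, 3.39 for Tssk4 and 4.48 for Tssk6. Tssk1 held 77.5% of the summed kinase FPKM in the KIT-labelled library and 12.6% in the THY1-labelled library. Tssk3 held 7.86% and 83.8% in the same order, so a different kinase predominated in each library. Tssk2, Tssk4 and Tssk6 together stayed below Tssk1 in the KIT-labelled library and below Tssk3 in the THY1-labelled library. In fragment equivalents Tssk1 stood at 588 in the KIT-labelled library and 154 in the THY1-labelled library, with a GENCODE transcript of 3700 bases. With the RefSeq length of 1451 bases these became 231 and 60.5. Tssk3 stood at 20.6 and 354, Tssk2 at 7.55 and 8.72, and Tssk6 at 22.6 and 3.51. For Tssk2 the fragment estimates were therefore almost alike in both libraries, and its FPKM ratio of 5.55 is close to the ratio of fragment worth.

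**Figure D3:**
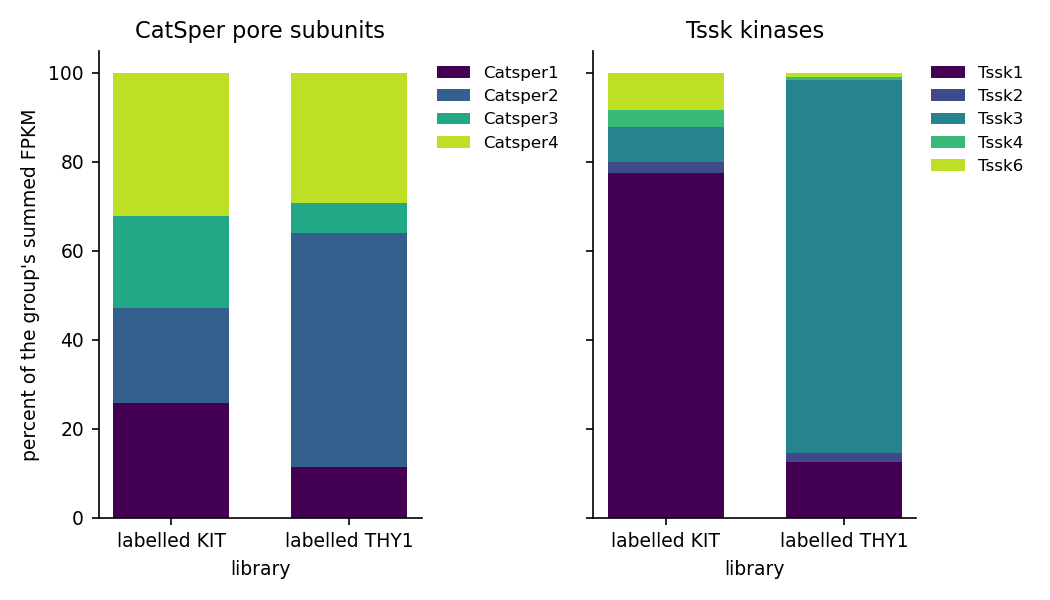
Share of each gene in the summed FPKM of the 4 pore subunits (left panel) and of the 5 kinases (right panel), in percent, for the KIT-labelled library and the THY1-labelled library. Tssk1 fills 77.5% of the kinase bar in the KIT-labelled library, and Tssk3 fills 83.8% of it in the THY1-labelled library. The CatSper shares of the KIT-labelled library rest on an estimated 1.18 to 2.45 fragments per gene.

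Tssk1 and Tssk2 lie side by side on chromosome 16, with starts 4434 bases apart on the same strand in the GRCm38.p6 annotation of RefSeq. Their coding sequences were 81.9% identical over 1045 aligned bases, against 62.2% to 67.0% for every other pair of the 5 kinases. Of the 50-base windows of the Tssk2 transcript, 9.34% also occurred in Tssk1, and 3.42% of those of Tssk1 occurred in Tssk2. A part of the reads of this pair could thus be assigned to either gene, and their values are uncertain to that extent. No 50-base window of Catsper1, Catsper2, Catsper3, Catsper4, Tssk3, Tssk4 or Tssk6 occurred in another gene's transcript.

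The promoters of this pair are shown because both genes were higher in the KIT-labelled library, and those of Tssk6 and Catsper2 because they are the members of opposite direction that hold the same short motif. Each sequence gives the 120 bases before the RefSeq start, 5′ to 3′ on the gene's strand, in build GRCm38.p6, another build than the mm9 named for the deposited values. For Tssk1 (chr16:17894083-17894202, plus strand) and Tssk2 (chr16:17898517-17898636, plus strand), capitals mark runs of 8 or more bases found in both. For Tssk6 (chr8:69902064-69902183, plus strand) and Catsper2 (chr2:121413793-121413912, minus strand), capitals mark TGACG or its reverse complement CGTCA.
Tssk1: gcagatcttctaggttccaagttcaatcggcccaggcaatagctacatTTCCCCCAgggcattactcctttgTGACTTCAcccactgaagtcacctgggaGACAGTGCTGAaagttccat
Tssk2: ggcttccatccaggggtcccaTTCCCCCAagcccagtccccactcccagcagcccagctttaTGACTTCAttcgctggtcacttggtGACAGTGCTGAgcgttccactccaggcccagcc
Tssk6: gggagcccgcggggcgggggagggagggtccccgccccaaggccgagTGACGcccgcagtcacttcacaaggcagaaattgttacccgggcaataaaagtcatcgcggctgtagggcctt
Catsper2: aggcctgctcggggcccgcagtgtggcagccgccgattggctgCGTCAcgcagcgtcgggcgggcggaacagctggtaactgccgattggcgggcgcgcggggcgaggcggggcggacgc

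The longest run shared by the Tssk1 and Tssk2 windows was the 11 bases GACAGTGCTGA, and the 3 shared runs came in the same order in both. RefSeq promoters of 300 bases were at hand for 8 of the 9 genes and were searched on both strands. The cyclic AMP response element TGACGTCA, the site of the spermatid activator CREM, was found in none of the 8 and in 1.79% of 32851 promoters. Its part TGACG was found in 2 of the 8, Catsper2 and Tssk6, and in 20.8% of all promoters. Neither GTTGCC, a part of the X-box bound by RFX factors, nor TATAAA was found in any of the 8, and these occur in 12.5% and 13.6% of all promoters. The 2 genes that share TGACG differed in opposite directions between the libraries.

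Exon number also separated the channel subunits from the kinases, with no overlap. In the GENCODE transcript with the longest coding sequence, Tssk1, Tssk2 and Tssk6 have 1 exon, Tssk3 has 2 and Tssk4 has 4. The CatSper subunits have between 8 (Catsper3) and 13 (Catsper2). Over all genes counted, the difference between the libraries moved with exon number in steps. Of 471 genes with 1 exon, 88.5% were at least 2-fold higher in the KIT-labelled library and 4.03% in the THY1-labelled library. Of 946 genes with 4 exons these shares were 50.2% and 27.9%, and of 9417 genes with 6 or more exons they were 28.0% and 50.9%. The median difference was 2.55 for genes with 1 exon, 2.38 with 2, 1.77 with 3, 1.01 with 4, 0.57 with 5 and -1.06 with 6 or more. Among genes of at least 30 FPKM in either library, the medians were 3.66 for 130 genes with 1 exon and -2.27 for 3647 genes with 6 or more. This relation was noticed in these data, and its part in the split between kinases and channel subunits was not tested.

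**Figure D4:**
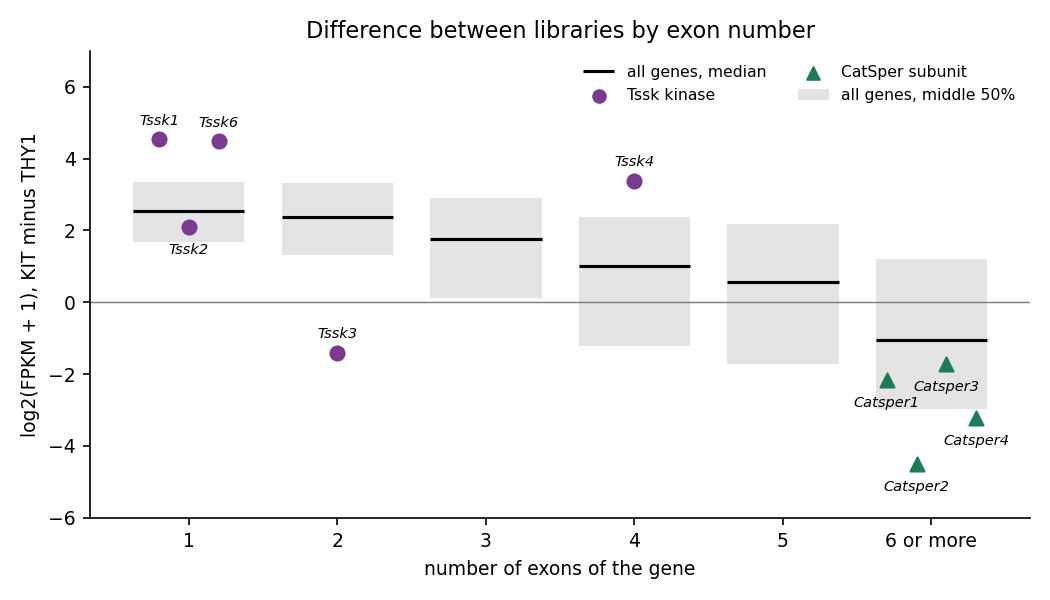
Difference on the log2(FPKM + 1) scale, KIT-labelled minus THY1-labelled, by number of exons. Grey boxes span the quartiles of all genes counted in each class and black lines their medians, which step down from 2.55 for 1 exon to -1.06 for 6 or more. Circles are Tssk kinases and triangles CatSper subunits, spread sideways within a class for legibility.

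Genes of the same exon number give another yardstick for the 9 genes. Tssk1 lay 1.99 above the median of single-exon genes, at percentile 94.3 of that class, and Tssk6 lay 1.93 above it, at percentile 93.6. Tssk2 was at -0.44 from it, at percentile 35.5, so its excess in the KIT-labelled library was within that of single-exon genes at large. Tssk4 lay 2.38 above the median of genes with 4 exons, at percentile 90.3. Tssk3 was at -3.78 from the median of genes with 2 exons, at percentile 6.36. Of the 9 genes it was the one whose direction ran most against its class, where 79.5% were higher in the KIT-labelled library and 9.61% in the THY1-labelled library. Relative to the median of genes with 6 or more exons, Catsper2 was at -3.44 (percentile 10.5), Catsper4 at -2.16 (percentile 22.3), Catsper1 at -1.10 (percentile 35.3) and Catsper3 at -0.66 (percentile 41.2). The 2-fold call of Catsper3 was lost on this scale and the direction of Tssk2 was turned.

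Transcripts that overlap on the other strand bear on 3 of the 9 genes. In GENCODE, 375 bases of Tssk6 exon sequence are shared with exons of Ndufa13, a subunit of respiratory complex I, on the opposite strand. Ndufa13 was at 2374 FPKM in the KIT-labelled library and 319 FPKM in the THY1-labelled library, the same direction as Tssk6. The libraries are directional per the labels, but whether the counting used strand is not given in the sources used here, so reads of the 2 genes cannot be told apart with certainty and the value of Tssk6 is uncertain. Tssk1 shares 63 bases with Dgcr2, which was at 2.14 FPKM in the KIT-labelled library and 14.5 FPKM in the THY1-labelled library, the opposite direction to Tssk1. Catsper2 shares 18 bases with the disulfide isomerase gene Pdia3, at 4.98 FPKM in the KIT-labelled library and 334 FPKM in the THY1-labelled library.

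The accessory subunits of the channel followed the pore subunits. Of 11 genes listed for this group, 8 had a value, and 8 of 8 passed 2-fold toward the THY1-labelled library, with a median difference of -2.99 against -0.0026 over all genes counted. Catsperd, listed under its older symbol Tmem146, is a subunit without which the mouse channel does not form, and was at 1.23 FPKM in the KIT-labelled library and 80.5 FPKM in the THY1-labelled library. The transmembrane subunit Catsperb was at 9.02 and 30.5 FPKM in the same order. Catsperz and its partner Efcab9, a pH-dependent calcium sensor, place the channel in its linear arrays along the tail. Catsperz, listed under a clone name, was at 17.5 FPKM in the KIT-labelled library and 315 FPKM in the THY1-labelled library, the highest value of any channel gene there. Efcab9 was at 24.1 FPKM in the KIT-labelled library and 90.0 FPKM in the THY1-labelled library. The transporter-like Slco6c1, which is part of the mouse channel complex, was at 0.993 FPKM in the KIT-labelled library and 33.9 FPKM in the THY1-labelled library.

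Catsperg1 was at 0.909 FPKM in the KIT-labelled library and 16.8 FPKM in the THY1-labelled library. Its copy Catsperg2 was listed at 0 in the KIT-labelled library and at 5.74 FPKM in the THY1-labelled library. The coding sequences of this pair were 96.4% identical, and 41.0% of the 50-base windows of each occurred in the other, so the division of reads between them is uncertain. Catspere2, listed under a predicted-gene name, was also at 0 in the KIT-labelled library, against 4.94 FPKM in the THY1-labelled library. All 8 accessory genes have 4 or more exons, and of the 11310 genes counted with 4 or more exons 47.6% were higher in the THY1-labelled library. Pore and accessory subunits together, 12 of 12 channel genes with a value thus passed 2-fold toward the THY1-labelled library. In the KIT-labelled library, Catsperb, Catsperz and Efcab9 reached 12.3, 5.01 and 6.65 fragment equivalents, and the other 5 accessory genes lay at or below 1.22.

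The partners of the kinases differed among themselves in direction. Tsks, the substrate of TSSK1 and TSSK2, was at 8.39 FPKM in the KIT-labelled library and 270 FPKM in the THY1-labelled library, opposite to both of its kinases. Tsacc, which encodes a co-chaperone that activates TSSK6, was at 14.9 FPKM in the KIT-labelled library and 123 FPKM in the THY1-labelled library, opposite to Tssk6. Pdpk1, a kinase that can phosphorylate and activate TSSK3, was at 7.49 FPKM in the KIT-labelled library and 219 FPKM in the THY1-labelled library, in the direction of Tssk3. The related gene Tssk5 lay within 2-fold, at 5.11 FPKM in the KIT-labelled library and 5.60 FPKM in the THY1-labelled library. Among the chaperones, Hsp90b1 was at 16.0 and 727 FPKM and Stip1 at 39.1 and 105 FPKM. Hsp90ab1 ran the other way at 13.4 and 4.60 FPKM, as did Hsp90aa1 at 2.63 and 0.807 FPKM, again with the KIT-labelled library first. In all, 2 of 8 were higher in the KIT-labelled library, 5 in the THY1-labelled library and 1 lay within 2-fold, with a median of -2.18. Every one of these partners has 4 or more exons, and of all genes counted with 4 or more exons 31.3% were higher in the KIT-labelled library and 47.6% in the THY1-labelled library. The 2 genes higher in the KIT-labelled library became 0 after scaling the libraries to a median ratio of 1, and 1 with a minimum of 5 FPKM.

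Of 14 other kinases with roles in the testis, 0 passed 2-fold toward the KIT-labelled library, 8 passed it toward the THY1-labelled library and 6 lay within 2-fold, with a median of -1.37. All of them have 4 or more exons, the class in which 47.6% of all genes counted were higher in the THY1-labelled library. Centred on the median of genes of the same exon number, 3 of them were called higher in the KIT-labelled library and 6 in the THY1-labelled library, with a median of -0.32. The largest difference was that of Stk33, a kinase needed for sperm tail formation, at 3.04 FPKM in the KIT-labelled library and 172 FPKM in the THY1-labelled library. The centrosomal kinase Nek2, the male germ cell-associated kinase Mak and Nme5, of the nucleoside diphosphate kinase family, followed, at 1.99, 4.18 and 7.39 FPKM in the KIT-labelled library against 36.3, 32.0 and 47.7 FPKM in the THY1-labelled library. Stk31 had the highest mean of the list, at 126 FPKM in the KIT-labelled library and 108 FPKM in the THY1-labelled library.

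The proteins that work beside CatSper in sperm were split. Of 20 genes of sperm ion transport and capacitation, the maturation that makes sperm able to fertilise, 7 were at least 2-fold higher in the KIT-labelled library and 13 in the THY1-labelled library (median -2.25). The sperm sodium pump Atp1a4 was at 3.71 FPKM in the KIT-labelled library and 418 FPKM in the THY1-labelled library. The protein kinase A regulatory subunits Prkar1a and Prkar2a were at 1.11 and 4.43 FPKM in the KIT-labelled library, against 127 and 246 FPKM in the THY1-labelled library. The sperm phospholipase Plcz1, which starts egg activation, was at 2.91 and 141 FPKM with the KIT-labelled library first, and the tail anchor Akap4 at 14.3 and 544 FPKM. The proton channel Hvcn1, which in human sperm raises the pH to which CatSper responds, was at 420 FPKM in the KIT-labelled library and 50.9 FPKM in the THY1-labelled library. Of the 18 genes of this list with 4 or more exons, 5 were higher in the KIT-labelled library and 13 in the THY1-labelled library. Of all genes counted with 4 or more exons these shares were 31.3% and 47.6%. Both genes with fewer exons were higher in the KIT-labelled library. Centred on the median of genes of the same exon number, the median of this list was -1.19.

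Of 11 other calcium channel genes, 8 passed 2-fold toward the KIT-labelled library and 3 toward the THY1-labelled library (median 1.42). All 11 have 4 or more exons. Of all genes counted with 4 or more exons, 31.3% were higher in the KIT-labelled library and 47.6% in the THY1-labelled library. This list thus ran against the direction of its exon class, and centred on genes of the same exon number its median was 2.48. The P/Q-type channel gene Cacna1a was at 96.2 FPKM in the KIT-labelled library and 12.5 FPKM in the THY1-labelled library. The IP3 receptor gene Itpr3 was at 87.3 and 16.3 FPKM in the same order. Itpr1 was listed at 0 in the KIT-labelled library and at 29.3 FPKM in the THY1-labelled library, and the lysosomal channel gene Tpcn2 was at 1.35 and 10.7 FPKM. After scaling the libraries to a median ratio of 1, which moves the median of all genes to -0.57, 4 of these genes rather than 8 were called higher in the KIT-labelled library.

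Markers of spermatids were present in both libraries, although both are labelled as spermatogonia. Of the 8 defining spermatid markers, 7 were above 0 in the KIT-labelled library, with Spaca1 at 0, and 8 in the THY1-labelled library. They summed to 4897 FPKM in the KIT-labelled library and 1252 FPKM in the THY1-labelled library. Over the longer list of 41 spermatid genes, 15 passed 2-fold toward the KIT-labelled library and 24 toward the THY1-labelled library (median -2.54), and the list sums ran opposite to those of the defining markers, at 5912 FPKM and 9439 FPKM. Centred on the median of genes of the same exon number, 7 rather than 15 were called higher in the KIT-labelled library and 27 in the THY1-labelled library. Direction in this list was divided by exon number with few exceptions, while among the 9 genes Tssk3 and Tssk4 did not follow the same division. Tssk4 has 4 exons, and of all genes counted with 4 exons 50.2% were higher in the KIT-labelled library and 27.9% in the THY1-labelled library. Of 15 spermatid genes with 1 to 3 exons, 13 were higher in the KIT-labelled library and 1 in the THY1-labelled library. Of 26 with 4 or more exons, 2 were higher in the KIT-labelled library and 23 in the THY1-labelled library. Over all genes counted, 76.3% of those with 1 to 3 exons were higher in the KIT-labelled library and 12.5% in the THY1-labelled library. Prm1, a protamine that packs sperm DNA, has 2 exons and was at 2406 and 184 FPKM with the KIT-labelled library first, while the outer dense fibre gene Odf2, with 21 exons, was at 98.8 and 2358 FPKM. Among the largest differences were those of the tail protein gene Ropn1 and the acrosomal Zpbp2, listed at 0 in the KIT-labelled library against 552 and 109 FPKM in the THY1-labelled library.

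**Figure D5:**
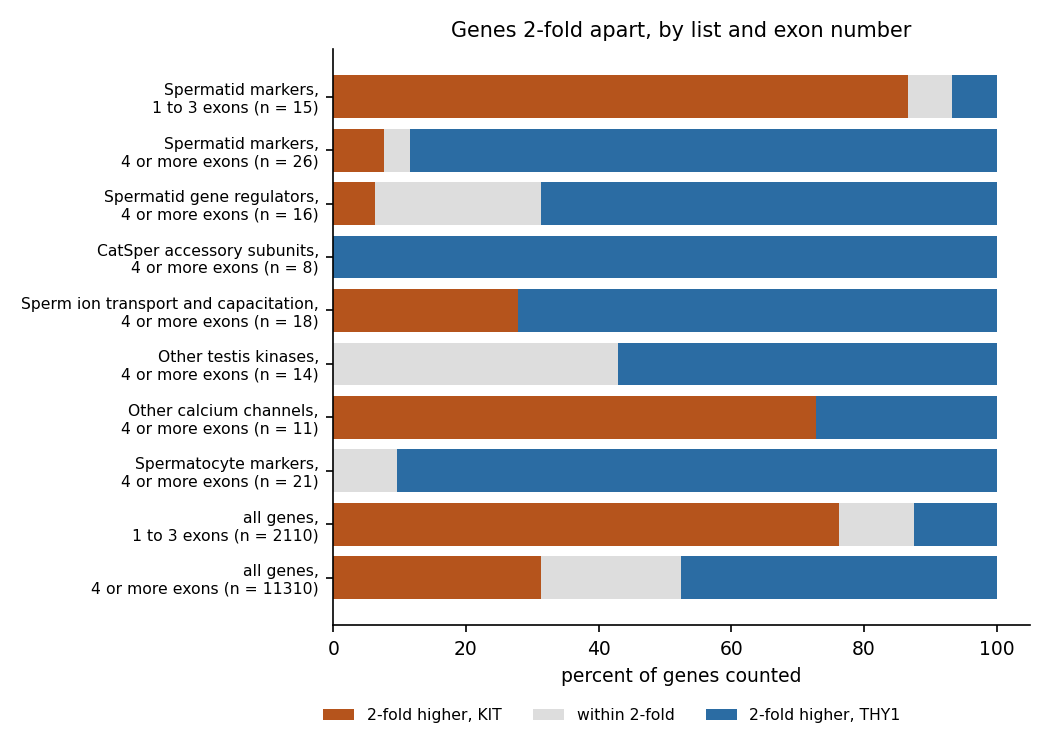
Percent of genes at least 2-fold higher in the KIT-labelled library (left segment), within 2-fold (middle) and at least 2-fold higher in the THY1-labelled library (right segment), for gene lists divided by exon number and for all genes counted. Spermatid markers with 1 to 3 exons and those with 4 or more lie at opposite ends.

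Regulators of spermatid genes were mostly higher in the THY1-labelled library. Of 17, 2 passed 2-fold toward the KIT-labelled library, 11 toward the THY1-labelled library and 4 lay within it (median -2.48). Of these, 16 have 4 or more exons, the class in which 47.6% of all genes counted were higher in the THY1-labelled library. Centred on the median of genes of the same exon number, 3 were called higher in the KIT-labelled library and 11 in the THY1-labelled library, with a median of -1.42. Crem, the activator of post-meiotic genes, was listed at 0 in the KIT-labelled library and at 89.7 FPKM in the THY1-labelled library. The TFIID component gene Taf7l and the germ cell TFIIA gene Gtf2a1l were likewise listed at 0 in the KIT-labelled library, against 76.8 and 64.5 FPKM in the THY1-labelled library. The messenger RNA-binding Ybx2 was at 22.9 and 331 FPKM, and the bromodomain gene Brdt at 23.0 and 176 FPKM, each with the KIT-labelled library first. The Piwi gene Piwil1 was at 0.504 and 52.3 FPKM in the same order.

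Markers of other testis cells also differed between the libraries. Defining spermatocyte markers were above 0 for 3 of 5 genes in the KIT-labelled library (sum 116 FPKM, Dmc1 and Hormad1 at 0) and for 5 of 5 in the THY1-labelled library (sum 476 FPKM). Sycp3 alone was at 111 FPKM in the KIT-labelled library and 286 FPKM in the THY1-labelled library, and the medians of the 5 were 1.48 and 53.0 FPKM. Defining spermatogonial markers were above 0 for 5 of 7 in the KIT-labelled library (sum 141 FPKM, Zbtb16 and Kit at 0) and for 6 of 7 in the THY1-labelled library (sum 74.1 FPKM, Zbtb16 at 0). These sums came from different genes. Thy1 and Nanos2 were at 78.8 and 54.1 FPKM in the KIT-labelled library, against 0.723 and 1.49 FPKM in the THY1-labelled library. Kit and Stra8 were at 36.7 and 34.1 FPKM in the THY1-labelled library, against 0 and 0.743 FPKM in the KIT-labelled library. Defining Leydig cell markers were above 0 for 4 of 4 listed genes in both, with sums of 160 FPKM in the KIT-labelled library and 5480 FPKM in the THY1-labelled library. Defining Sertoli cell markers summed to 14.9 FPKM (3 of 4 above 0, Fshr at 0) in the KIT-labelled library and 2.20 FPKM (4 of 4) in the THY1-labelled library. Over the full lists, 2 of 25 spermatocyte genes were higher in the KIT-labelled library and 21 in the THY1-labelled library, and of 9 Leydig genes 0 were higher in the KIT-labelled library and 7 in the THY1-labelled library. All 9 Leydig genes and 21 of the spermatocyte genes have 4 or more exons. In that class 31.3% of all genes counted were higher in the KIT-labelled library and 47.6% in the THY1-labelled library. The other lists were divided, with 4 of 9 Sertoli genes, 4 of 8 peritubular and stromal genes and 5 of 10 macrophage genes higher in the KIT-labelled library, against 4, 4 and 3 in the THY1-labelled library. The full lists summed, with the KIT-labelled library first, to 371 and 4336 FPKM for spermatocytes and 206 and 12964 FPKM for Leydig cells. Without Meig1 the spermatocyte sums were 344 and 1926 FPKM, and without Ptgds the Leydig sums were 182 and 6501 FPKM. A single gene held most of the THY1-labelled sum in each of the divided lists. The Sertoli list summed to 45.5 and 916 FPKM, and to 43.9 and 67.5 FPKM without Clu. The peritubular and stromal list summed to 219 and 836 FPKM, and to 219 and 202 FPKM without Vcam1. The macrophage list summed to 281 and 968 FPKM, and to 257 and 87.6 FPKM without Aif1. Of 16 spermatogonial genes counted, 6 were higher in the KIT-labelled library and 8 in the THY1-labelled library, with sums of 311 and 380 FPKM. With the KIT-labelled library first, Nanos3 was at 118 and 2.74 FPKM, and the germ cell gene Ddx4 at 1.77 and 140 FPKM. The part of these cell types in the values of the 9 genes was not tested.

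Within the lists used here, genes with values like those of the 9 were found by Euclidean distance on log2(FPKM + 1) over the 2 libraries, among 210 other genes. Catsper1 lay nearest to Rfx4 (distance 0.056), Catsper2 to Spag6 (0.27), Catsper3 to Tpcn2 (0.55) and Catsper4 to Uchl1 (0.24). Tssk3 lay nearest to Smcp (0.16), a gene of the sperm mitochondrial sheath, at 43.5 FPKM in the KIT-labelled library and 132 FPKM in the THY1-labelled library. Tssk2 lay nearest to H2afx (0.20), Tssk4 to Pkdrej (0.42) and Tssk6 to Nanos2 (0.32). Tssk1 had no close neighbour, the nearest being Oaz3 at a distance of 1.39, with 168 FPKM in the KIT-labelled library and 21.7 FPKM in the THY1-labelled library. Since each gene has 2 values, such likeness is that of a pair of levels.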

How the data were processed

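Of 13 samples, 2 had values that were analysed. The deposited tables hold 1 value per gene symbol under a heading without a unit. These were read as FPKM computed by the authors, because they are not whole numbers and the submitters' processing notes name Cufflinks 2.1.1, beside TopHat 1.4.1, CASAVA and build mm9, without roles. The gene annotation, filters, strand use in counting and treatment of reads with several alignments are not given in the sources at hand. Rpph1, a very abundant RNA, was left out of the sum in 1 scaling. All values summed to 1.52e+06 FPKM in the KIT-labelled library and 804044 FPKM in the THY1-labelled library. Without Rpph1 the KIT-labelled sum was the smaller one, and a factor of 1.17 on it made the sums equal. Rpph1 thus held a large part of the KIT-labelled sum.

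Tables were assigned to samples as recorded in the series and to groups by title. Calls used log2(FPKM + 1), a minimum of 1 FPKM and 2-fold. The calling code was run on simulated data without noise, which checks its arithmetic and not the error rate of the calls. No test between groups is possible with 1 library each. Members and gene lists were chosen with earlier results of these data known, and the division by exon number was added after seeing the data. Named genes are the 9 genes, the channel's accessory subunits, the kinase partners, Kit and Thy1, and, per other list, some or all of the 4 genes with the largest difference and the 2 with the highest mean, plus each member's nearest gene in the lists. Ndufa13, Dgcr2 and Pdia3 were named for their overlap, and some defining markers for their values. Older symbols were matched through RefSeq synonyms that are no current symbol. Exon numbers and lengths came from GENCODE M21 (GRCm38), whose coordinates were not used with the values, and 86.2% of the genes counted had an exon number. Promoters came from RefSeq (GRCm38.p6). Python 3.11.15, numpy 2.4.6, pandas 2.3.3, matplotlib 3.10.9 and Biopython 1.88 were used.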

Additional observations from a re-analysis of the deposited data

How the results depend on the processing

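The 9 differences were recomputed under 8 other settings: libraries scaled to a median ratio of 1, to 1 upper quartile or to 1 sum without Rpph1, a pseudocount of 0.1, no minimum, a minimum of 5 FPKM, genes above 0 in both libraries, and, chosen after seeing the data, centring on genes of the same exon class. The 3 settings that only choose which genes count leave a gene's difference as it is, so their 27 values equal the reported ones by construction. Of the 45 values under the other 5 settings, 43 kept their direction and their side of 2-fold. The scalings multiplied the KIT-labelled values by 0.677, 1.21 and 1.17. None of these factors could bring even the smallest of the 9 differences, -1.40 for Tssk3, within 2-fold. A smaller pseudocount can only enlarge a difference. Agreement under the scalings and the pseudocount was thus fixed by the sizes of the differences, and only centring by exon class could change a call. The exceptions came from centring by exon class, by its construction: Tssk2 reversed to -0.44 and Catsper3 fell within 2-fold at -0.66. The count of the 9 genes higher in each library stayed within 1.5 times under every setting. Among lists, the spermatid median of -2.54 reversed to 0.58 over genes above 0 in both libraries. That setting leaves out the 8 spermatid genes listed at 0 in the KIT-labelled library. Calls toward the THY1-labelled library fell from 24 to 16, and those toward the KIT-labelled library stayed at 15. The peritubular median of -1.20 reversed to 1.70 under the same setting. It was 0.25 with no minimum, 0.39 after the upper quartile and 0.37 after the sum without Rpph1, and what moved it was not tested. List counts that moved by over 1.5 times, beside those given above, were, toward the KIT-labelled library, 2 rather than 4 Sertoli genes under centring, 1 rather than 2 spermatid gene regulators and 3 rather than 6 spermatogonial genes at a minimum of 5 FPKM, and 1 rather than 0 other testis kinases with a pseudocount of 0.1, the upper quartile or the sum without Rpph1. Toward the THY1-labelled library, over genes above 0 in both, 2 rather than 4 peritubular and 4 rather than 8 spermatogonial genes were counted. The median of all genes was -0.57 after scaling to a median ratio of 1, 0.26 after the upper quartile and 0.22 after the sum without Rpph1. No paired analysis was possible because each group had 1 library and their titles carry no replicate number. Depth limits the CatSper values in the KIT-labelled library and those of Tssk4 and Tssk6 in the THY1-labelled library, each at under 4 fragment equivalents.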
